A study of Homo sapiens with 42 samples.

Results

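The libraries described here come from HEK293T cells, a human embryonic kidney line, in which POLR3G was lowered in separate experiments by an antisense oligonucleotide (ASO) and by a small interfering RNA (siRNA). They are 12 of the 42 libraries in the series, chosen by their labels as the cells treated at 200 nM for 48 h: 3 given the POLR3G ASO, 3 given its scramble ASO control, 3 given the POLR3G siRNA and 3 given the control siRNA. Both agents and both controls were delivered with the lipid reagent RNAiMax, and polyadenylated RNA was made into stranded libraries. The quantity followed is the response to the ASO (POLR3G ASO over scramble ASO) minus the response to the siRNA (POLR3G siRNA over control siRNA), in log2 per gene. It is called the difference below, and a positive value means a higher response to the ASO. The experiments share no library, so each response rests on its own 3 treated and 3 control libraries. The labels do not say whether the 3 libraries of a group came from separate cultures, so p-values measure the spread between these libraries, which may be technical.

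RNA polymerase III makes transfer RNAs, 5S ribosomal RNA and other short RNAs. Its subunits POLR3G and POLR3GL are paralogs that take the same place in alternative forms of the enzyme, and MAF1 is its general repressor. An ASO is a single strand that pairs with its target RNA, and many designs direct the nuclease RNase H1 to that RNA; an siRNA is loaded into an Argonaute protein, which cleaves a fully paired target and can also lower RNAs that pair with only its seed, a short stretch near its 5′ end. The sources used here give neither the chemistry nor the sequence of these agents.

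The 12 libraries held 32705684 to 49358788 estimated reads. All 11 genes listed as HEK293T markers had reads in every library; IGF2BP1 ranged between 410 and 540 CPM (counts per 1000000 of the library total, scaled by TMM to make libraries comparable) and PAX2 between 2.19 and 6.53 CPM. Of 15 monocyte and macrophage markers, 7 had reads in all 12 libraries, CD68 (1.63 to 24.7 CPM), LYZ (1.7 to 6.52 CPM) and ITGAM (0.0495 to 5.07 CPM) being the highest, while TYROBP had no read in any and PTPRC none in 11. Their summed level was 38.3 to 40.1 CPM in POLR3G ASO libraries, against 7.48 to 8.86 CPM in scramble ASO libraries, and 5.38 to 6.1 CPM in POLR3G siRNA libraries, against 3.72 to 4.29 CPM in control siRNA libraries; its part in the results was not tested. In RNA from whole cultures, a change in every cell and a change in the share of cells that express a gene cannot be told apart.

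POLR3G itself fell with both agents. It had 10.3, 6.49 and 8.09 CPM in POLR3G ASO libraries, against 27.5, 20.7 and 21.8 CPM in scramble ASO libraries. It had 15.2, 12.6 and 17.6 CPM in POLR3G siRNA libraries, against 31.8, 42.5 and 31.4 CPM in control siRNA libraries. No treated library overlapped its controls in either experiment. The fall was 2.81-fold with the ASO (log2 -1.49 ± 0.18, SE; edgeR adjusted p = 1.05e-05) and 2.33-fold with the siRNA (log2 -1.22 ± 0.17; edgeR adjusted p = 1.82e-05). The falls did not differ beyond their error: the difference was -0.27 ± 0.25 with a 95% interval of -0.80 to 0.27 (edgeR adjusted p = 0.356), which leaves room for a knockdown up to 0.80 log2 deeper with the ASO or 0.27 log2 deeper with the siRNA.

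The paralog POLR3GL fell with both agents by less. Its mean was 22.5 ± 1.06 CPM in POLR3G ASO libraries and 30.6 ± 2.2 CPM in scramble ASO libraries (SD, n = 3 each). In the siRNA experiment it was 22.5 ± 0.531 CPM in POLR3G siRNA libraries and 32.8 ± 1.01 CPM in control siRNA libraries. The difference of the POLR3GL responses was 0.10 ± 0.07 (95% interval -0.06 to 0.26; edgeR adjusted p = 0.253), and 0.22 when only genes of at least 5 CPM were fitted (edgeR adjusted p = 0.016).

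The repressor MAF1 separated the agents. It had 43.9, 45 and 44.3 CPM in POLR3G ASO libraries, against 44.2, 44.8 and 45.8 CPM in scramble ASO libraries, where the ranges overlapped. It had 9.46, 10.7 and 10.7 CPM in POLR3G siRNA libraries, against 50.7, 52.7 and 50.1 CPM in control siRNA libraries. Its ASO response was -0.02 ± 0.04 (edgeR adjusted p = 0.699), whereas it fell 4.97-fold with the siRNA (log2 -2.31 ± 0.04; edgeR adjusted p = 6.1e-14). The difference was 2.29 ± 0.06 (edgeR adjusted p = 3.31e-12).

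**Figure D1:**
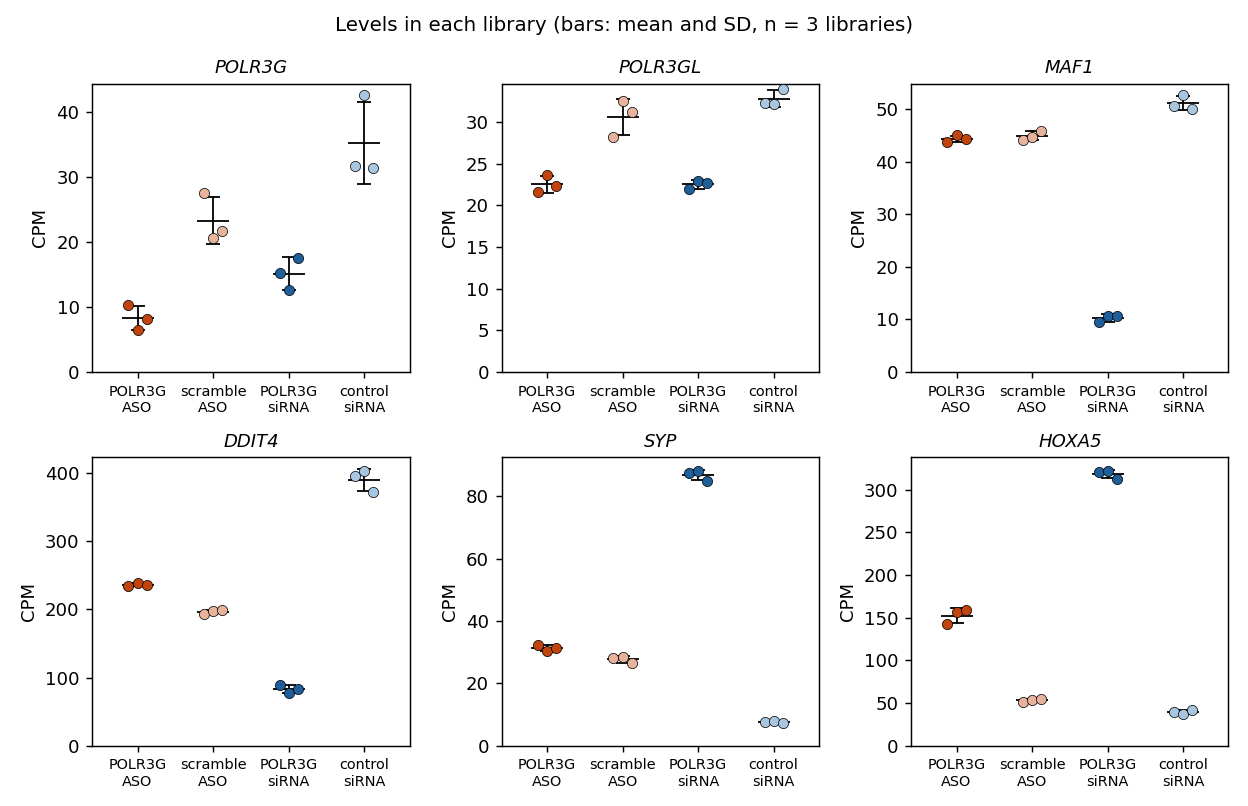
CPM (linear axis) of 6 genes in each of the 12 libraries, in the order POLR3G ASO, scramble ASO, POLR3G siRNA and control siRNA; points are libraries, bars the mean and SD of 3. POLR3G and POLR3GL are below their controls with both agents, MAF1 only with the siRNA; DDIT4 moved in opposite directions with the agents, SYP rose 1.13-fold with the ASO and 11.5-fold with the siRNA, and HOXA5 rose with both.

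MAF1 transcripts hold the 7-mer CCGCAGA in a 3′ UTR. This 7-mer was singled out in an earlier look at these same siRNA libraries. It was the 7-mer whose 3′ UTR presence went with the lowest siRNA responses. Its siRNA values, and the difference that contains them, are therefore a description and support nothing. It also occurs once in the POLR3G coding sequence. 3 places are shown with 10 bases on each side, the 7-mer in capitals, on the transcript strand and in hg38 coordinates. They set the POLR3G site beside 1 site each in the ribosomal protein genes RPL13 and RPL37. The POLR3G site was found in 2 annotated coding transcripts, the RPL13 coding site in 5 and the RPL37 3′ UTR site in 1. An RPL13 3′ UTR site and an RPL37 coding site, whose flanking bases differ, are not shown.
POLR3G coding sequence, chr5:90506624-90506650, plus strand: gacgatgatgCCGCAGAacaggaggaa
RPL13 coding sequence, chr16:89563001-89563027, plus strand: gccaaggaagCCGCAGAacaggatgtt
RPL37 3′ UTR, chr5:40827177-40827203, minus strand: tccctgggccCCGCAGAtaattaaatc
Among protein-coding genes of at least 5 CPM, 359 had 1 such 7-mer in their longest 3′ UTR, 18 had more and 10708 had none. In this order, 64.6%, 55.6% and 38.6% of the genes fell with the siRNA, and 51.5%, 66.7% and 47.6% with the ASO. The median difference was 0.27 over the 359 genes and 0.15 over the 18, against -0.12 over the 10708 without it. The median ASO response, which played no part in choosing the 7-mer, was -0.13, -0.15 and -0.09 in the same order of groups, and the median siRNA response -0.34, -0.36 and 0.05. The 3′ UTRs also differed in length, with medians of 2842, 4020 and 1514 bases; the part of length in these medians was not tested.

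RPL37 and RPL13, both components of the large ribosomal subunit, stood out among the cytosolic ribosomal proteins together with RPL4. RPL37 had 564, 575 and 561 CPM in POLR3G ASO libraries, against 560.2, 561 and 565 CPM in scramble ASO libraries. It had 153, 149 and 152 CPM in POLR3G siRNA libraries, against 557, 567 and 567 CPM in control siRNA libraries. Only the siRNA libraries parted from their controls: the difference was 1.91 ± 0.02 (edgeR adjusted p = 2.3e-14). RPL13 fell 1.09-fold with the ASO and 3.74-fold with the siRNA, a difference of 1.78 ± 0.03. For RPL4, whose coding transcripts hold no such 7-mer in the annotation used, the difference was 1.32 ± 0.02, from an ASO response of -0.05 and an siRNA response of -1.36. Ribosomal protein genes have many near-identical pseudogene copies, among which reads may have been shared out.

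Over all 17489 genes tested, the responses to the agents differed widely. The difference was called (edgeR quasi-likelihood test, adjusted p under 0.05) for 11679 genes, 66.8% of those tested: 5909 were higher (33.8%) and 5770 lower (33.0%). Past 2-fold there were 2508 higher (14.3%) and 886 lower (5.07%). A call is therefore the common case in these libraries, and a list with shares near 33.8% higher and 33.0% lower does not stand apart from all genes. The share called lower also went with the level: it was 48.9%, 59.0% and 69.8% in the 3 highest of 10 equal bins of genes by mean CPM, so that lists of abundant genes have to be read against those shares. The responses had similar numbers of calls, 11981 for the ASO (68.5%) and 11847 for the siRNA (67.7%), but not the same sizes: past 2-fold, 14.7% of genes rose and 1.34% fell with the ASO, and 6.47% rose and 8.66% fell with the siRNA. Over the 11380 genes of at least 5 CPM, the interquartile range of ASO responses was 0.40 log2 wide, and that of siRNA responses 0.78 log2. Across these genes Pearson's r between the responses was 0.29 and Spearman's rho 0.35; the points are genes of the same 12 libraries and are not independent.

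Sorted by direction, 2377 genes rose with both agents (13.6% of those tested) and 3082 fell with both (17.6%). Another 1934 fell with the ASO and rose with the siRNA (11.1%), and 996 rose with the ASO and fell with the siRNA (5.70%). Genes that rose with both made up 19.8% of the ASO calls and 20.1% of the siRNA calls, and genes that fell with both 25.7% and 26%. The 95% interval of the difference lay within 0.5 log2 of zero for 1084 of the 2377 genes that rose with both (45.6%) and 1648 of the 3082 that fell with both (53.5%), against 29.4% of all genes tested. It also did so for 18.1% of the genes that fell with the ASO and rose with the siRNA and 9.94% of those the other way round.

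**Figure D2:**
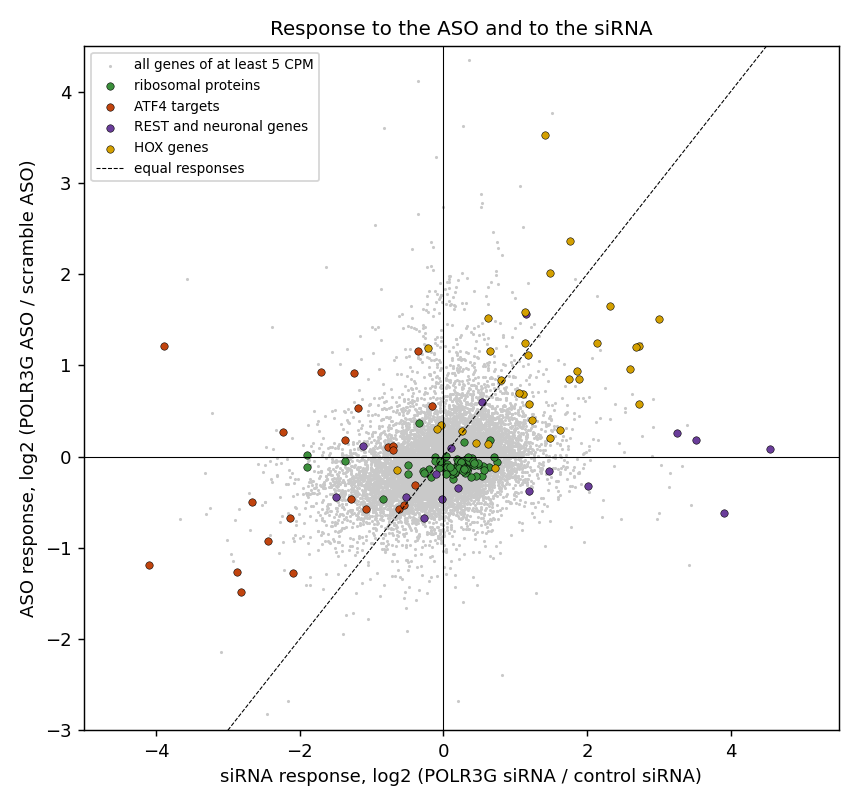
ASO response (vertical axis, log2) against siRNA response (horizontal axis, log2) for 11380 genes of at least 5 CPM, of which 6 lie outside the axes; colours mark 4 gene lists and the dashed line equal responses. The cloud is narrower along the ASO axis (interquartile range 0.40 log2) than along the siRNA axis (0.78 log2); ATF4 targets lie left of zero on the siRNA axis at ASO responses of either sign, and most HOX genes lie above zero on both.

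Targets of ATF4, the transcription factor of the integrated stress response, had the largest share of members called in a single direction among the 26 lists examined. Of 29 listed genes 27 were tested; 24 had a higher response to the ASO (88.9%, against 33.8% of all genes) and 0 a lower one, and the median difference was 1.5, against 0.08 over all genes. With the ASO 11 rose and 12 fell, with a median of 0.07; with the siRNA 0 rose and 26 fell, with a median of -1.37. Over all genes, 34.2% rose and 34.3% fell with the ASO, and 34.9% rose and 32.9% fell with the siRNA. FGF21 and GDF15 are among the 4 tested members under 5 CPM and are not described by value.

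Several regulators and secreted factors of the list rose with the ASO and fell with the siRNA. DDIT4, an inhibitor of the growth kinase complex mTORC1, had 234, 238 and 236 CPM in POLR3G ASO libraries, against 194, 198 and 199 CPM in scramble ASO libraries. It had 89.6, 77.8 and 82.8 CPM in POLR3G siRNA libraries, against 395, 404 and 372 CPM in control siRNA libraries. Each treated group lay wholly on its own side of its controls, and the difference was 2.49 ± 0.06 (edgeR adjusted p = 1.62e-12). DDIT3, a transcription factor of stress-induced cell death, rose 1.89-fold with the ASO and fell 3.26-fold with the siRNA (difference 2.62 ± 0.09). ATF3, which represses stress genes, rose 1.89-fold and fell 2.37-fold (difference 2.16 ± 0.10). STC2, a secreted glycoprotein, rose 1.45-fold and fell 2.29-fold (difference 1.73 ± 0.04). CEBPG, a dimer partner of ATF4, did so by 1.14-fold and 2.58-fold (difference 1.55 ± 0.04). PPP1R15A, which directs the phosphatase that reverses the stress signal, rose 2.22-fold with the ASO and fell 1.28-fold with the siRNA. The mRNA of ATF4 itself rose with the ASO (log2 0.56 ± 0.07; edgeR adjusted p = 1.45e-05), and its siRNA response was -0.16 ± 0.07 (edgeR adjusted p = 0.0652).

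INHBE, which encodes an activin subunit secreted mainly by liver, had the widest opposite movement of the list among genes of at least 5 CPM. It had 26.6, 23.9 and 28.5 CPM in POLR3G ASO libraries, against 9.33, 11 and 13.9 CPM in scramble ASO libraries. It had 0.857, 0.997 and 0.589 CPM in POLR3G siRNA libraries, against 12.4, 11.9 and 12.2 CPM in control siRNA libraries. The groups did not overlap in either experiment, and the difference was 5.10 ± 0.22 (edgeR adjusted p = 2.98e-10).

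Most amino acid metabolism genes named from the same list fell with both agents, and fell further with the siRNA. ASNS, which makes asparagine, averaged 222 ± 7.71 CPM in POLR3G ASO libraries and 422 ± 15.6 CPM in scramble ASO libraries (SD, n = 3 each). It averaged 102 ± 4.34 CPM in POLR3G siRNA libraries and 557 ± 10.7 CPM in control siRNA libraries, for a difference of 1.52 ± 0.05 (edgeR adjusted p = 2.74e-11). CHAC1, which degrades glutathione, fell 2.29-fold with the ASO and 17.1-fold with the siRNA. The cystine transporter SLC7A11 fell 1.42-fold and 6.33-fold, the glycine transporter SLC6A9 2.79-fold and 7.02-fold, and the mitochondrial folate enzyme ALDH1L2 2.42-fold and 4.28-fold, in each case with the ASO value first. JDP2, a repressor of the same transcription factor family, fell 2.4-fold with the ASO and 7.36-fold with the siRNA. The transsulfuration enzymes moved alike instead. CBS fell by 0.53 log2 with the ASO and by 0.55 log2 with the siRNA, a difference of 0.01 ± 0.03 (95% interval -0.05 to 0.08), and for CTH the difference was 0.05 ± 0.06 (95% interval -0.08 to 0.17).

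**Figure D3:**
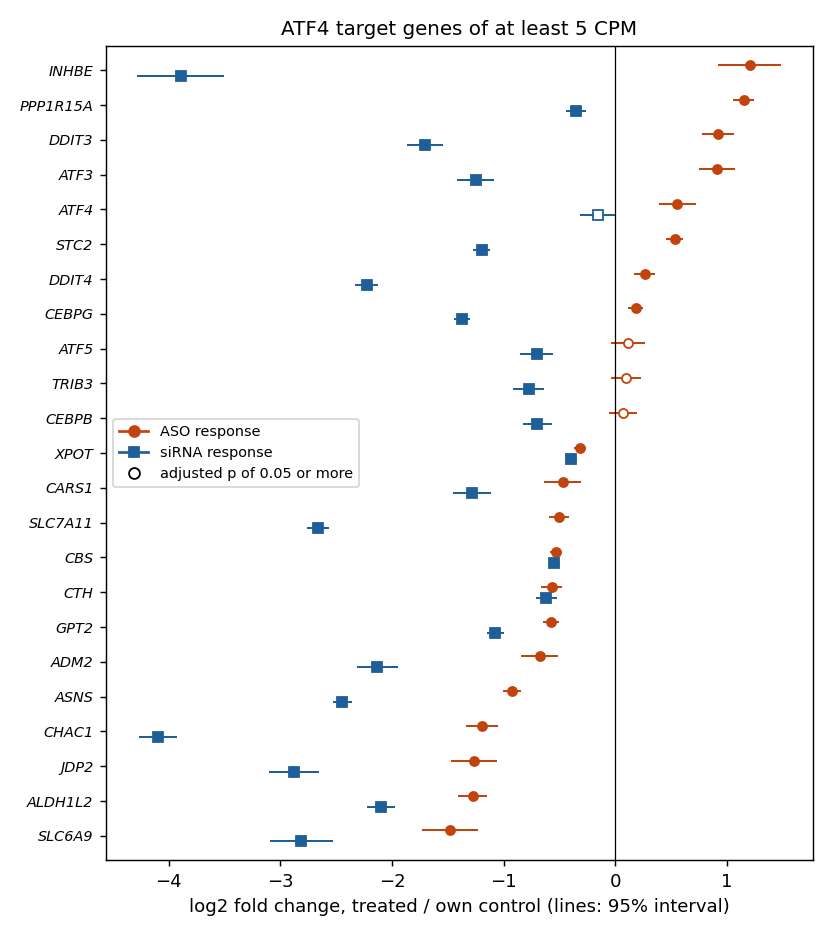
Log2 fold change of 23 ATF4 target genes of at least 5 CPM, each as the ASO response (circle) above the siRNA response (square) with 95% intervals; open symbols have an adjusted p of 0.05 or more. Genes are ordered by the ASO response: it is positive for INHBE, PPP1R15A, DDIT3 and ATF3 at the top and negative for SLC6A9, ALDH1L2 and JDP2 at the bottom, while the siRNA response is below zero for all 23.

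ATF4 acts with C/EBP proteins on a composite DNA element, and the promoters of the list were searched for its core TGATGNAA on both strands, within 250 bases before and 50 after the gene start in RefSeq (GRCh38.p14); no other motif was searched. Of the 27 tested genes 22 matched a promoter by symbol, and 5 of these (22.7%) held the core: ASNS, ATF3, CARS1, CHAC1 and FGF21. It stood in 1003 of all 27305 promoters (3.67%). The 4 windows shown belong to genes described here; each spans 60 bases on the gene's strand, with the match in capitals (as TTGCATCA where it lies on the other strand).
ATF3, chr1:212565190-212565249, plus strand: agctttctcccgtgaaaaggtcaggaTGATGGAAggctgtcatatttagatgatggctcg
ASNS, chr7:97872443-97872502, minus strand: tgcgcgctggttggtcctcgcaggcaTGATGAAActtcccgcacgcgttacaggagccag
CHAC1, chr15:40953236-40953295, plus strand: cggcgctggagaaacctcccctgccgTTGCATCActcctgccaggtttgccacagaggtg
CARS1, chr11:3057392-3057451, minus strand: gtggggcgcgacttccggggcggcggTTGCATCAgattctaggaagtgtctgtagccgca
The core lay 191 bases before the start of ATF3, 68 before that of ASNS, 209 before that of CHAC1 and 2 before that of CARS1. These 4 genes had ASO responses of both signs (0.92 for ATF3, -0.93 for ASNS, -1.19 for CHAC1 and -0.47 for CARS1, the tRNA synthetase for cysteine) and siRNA responses below zero. A match describes these letters in this window and shows no binding.

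Enzymes that make serine and one-carbon units fell with both agents in most cases. Of 16 genes, 9 had a higher and 6 a lower response to the ASO (56.2% and 37.5%), with 11 falling with the ASO and 10 with the siRNA. PHGDH, which commits glycolytic carbon to serine, had 246, 239 and 243 CPM in POLR3G ASO libraries, against 396, 373 and 399 CPM in scramble ASO libraries. It had 207, 213 and 206 CPM in POLR3G siRNA libraries, against 543, 553 and 532 CPM in control siRNA libraries. It therefore fell with both, by 1.61-fold with the ASO and 2.6-fold with the siRNA (difference 0.70 ± 0.04; edgeR adjusted p = 2.27e-09). The next enzymes of the pathway followed, PSAT1 with a difference of 0.94 ± 0.05 and PSPH with 0.44 ± 0.05. Among the exceptions was ALDH1L1, a cytosolic folate enzyme, which rose 4.12-fold with the ASO and had an siRNA response of -0.14 (difference 2.18 ± 0.12). MTHFD2, the mitochondrial folate dehydrogenase, fell with both and slightly further with the ASO (difference -0.23 ± 0.07; edgeR adjusted p = 0.0151), a call that was lost when only genes of at least 5 CPM were fitted (-0.11, edgeR adjusted p = 0.195).

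Amino acid transporters divided evenly. Of 18 tested, 8 had a higher and 7 a lower response to the ASO (44.4% and 38.9%, near the shares of all genes); 11 fell with the ASO and 10 with the siRNA. SLC7A5, the leucine transporter, fell 1.5-fold with the ASO and 2.47-fold with the siRNA, and the taurine transporter SLC6A6 1.85-fold with the ASO and 4.25-fold with the siRNA (differences 0.72 ± 0.03 and 1.20 ± 0.07). SLC38A1, a glutamine transporter, fell further with the ASO (difference -0.70 ± 0.04). SLC1A3, a glutamate transporter of glia and other cells, had 73.5, 73.4 and 68.2 CPM in POLR3G ASO libraries, against 75.7, 78.7 and 70.6 CPM in scramble ASO libraries. It had 238, 257 and 235 CPM in POLR3G siRNA libraries, against 74.1, 70.3 and 77.2 CPM in control siRNA libraries. Its rise of 3.3-fold was seen with the siRNA, while its ASO response of -0.06 missed the threshold, and the difference was -1.78 ± 0.07 (edgeR adjusted p = 1.21e-10). The lysosomal exporter SLC36A1 fell with the ASO and rose with the siRNA (log2 -0.35 and 0.65).

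Of the 20 cytosolic tRNA synthetases, which charge the transfer RNAs that Pol III makes, 16 fell and 1 rose with the ASO, whereas 10 fell and 9 rose with the siRNA; the difference was higher for 7 (35.0%) and lower for 12 (60.0%), with 14 of the 20 in the highest bin by level. Those for alanine (AARS1, 0.69), serine (SARS1, 0.66) and tyrosine (YARS1, 0.74) had positive differences, since they fell further with the siRNA. Those for arginine (RARS1, -0.96) and phenylalanine (FARSA, -0.88) had negative differences, since they rose with the siRNA and had ASO responses of 0.01 and -0.04 that missed the threshold. GARS1, for glycine, fell 1.74-fold with the ASO and had an siRNA response of -0.05 (difference -0.75 ± 0.04).

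Genes of neuronal vesicles and channels, many of them repressed outside neurons by the factor REST, formed the other side. Of 39 tested, 21 had a lower response to the ASO (53.8%, against 33.0% of all genes) and 7 a higher one, with a median difference of -0.62; this list was drawn up with the leading genes of these libraries known. When only genes of at least 5 CPM were fitted, 10 of 18 members were lower (55.6%). That level is a mean over the 12 libraries, which SCG3 and UNC13A reached only through the POLR3G siRNA libraries. Low members pass either filter if they are high in a single group, so both counts describe the genes that passed. Of the 39, 13 rose and 11 fell with the ASO (median 0.12), and 23 rose and 7 fell with the siRNA (median 1.17). SYP, a synaptic vesicle membrane protein, had 32.4, 30.5 and 31.4 CPM in POLR3G ASO libraries, against 28.3, 28.4 and 26.5 CPM in scramble ASO libraries. It had 87.3, 88 and 84.9 CPM in POLR3G siRNA libraries, against 7.49, 7.84 and 7.33 CPM in control siRNA libraries. SYP rose 1.13-fold with the ASO and 11.5-fold with the siRNA (difference -3.34 ± 0.06; edgeR adjusted p = 9.84e-14), and its level in scramble ASO libraries was above that in control siRNA libraries.

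UNC13A, which primes vesicles for fusion, averaged 3.27 ± 0.496 CPM in POLR3G ASO libraries and 3.09 ± 0.192 CPM in scramble ASO libraries (SD, n = 3 each). It averaged 30.6 ± 1.09 CPM in POLR3G siRNA libraries and 1.3 ± 0.082 CPM in control siRNA libraries (difference -4.47 ± 0.15). The granule proteins SCG3 and CHGB were low outside the POLR3G siRNA libraries. SCG3 averaged 0.968 CPM in POLR3G ASO libraries and 0.683 CPM in scramble ASO libraries, and 23.3 CPM in POLR3G siRNA libraries and 0.181 CPM in control siRNA libraries (difference -6.47 ± 0.28). CHGB averaged 1.46 CPM in POLR3G ASO libraries and 0.741 CPM in scramble ASO libraries, and 8.32 CPM in POLR3G siRNA libraries and 0.24 CPM in control siRNA libraries (difference -4.12 ± 0.21). The complexin CPLX1 (difference -2.99 ± 0.21), the SNARE protein SNAP25 (-2.10 ± 0.29), the calcium sensor SYT7 (-1.63 ± 0.10), the microtubule regulator STMN3 (-2.33 ± 0.11) and the vesicle GTPase RAB3C (-4.53 ± 0.15) went the same way; for RAB3C an adjustment for transcript length gave -2.25. Among members that did otherwise was the adhesion receptor CELSR3, which rose 2.95-fold with the ASO and 2.23-fold with the siRNA (difference 0.40 ± 0.08). Members with a higher response to the ASO also included REST, CHGA, ELAVL3, ATP2B2 and SCG5; the last 4, named after their values were seen, were below 5 CPM in every library. CDK5R1, an activator of the kinase CDK5, rose alike (difference 0.05 ± 0.06, 95% interval -0.08 to 0.18).

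REST itself had 86.1, 80.2 and 66.2 CPM in POLR3G ASO libraries, against 68.8, 64.7 and 81.3 CPM in scramble ASO libraries, where the ranges overlapped. It had 52.1, 52.1 and 53.4 CPM in POLR3G siRNA libraries, against 111, 106 and 124 CPM in control siRNA libraries. The ASO response was 0.12 ± 0.10 (edgeR adjusted p = 0.298), the siRNA response a fall of 2.17-fold (edgeR adjusted p = 1.46e-07), and the difference was 1.23 ± 0.13. Among filament genes that HEK293T cells are known to express, INA fell 1.13-fold with the ASO and rose 8.89-fold with the siRNA, and NEFM fell 1.11-fold with the ASO and rose 3.51-fold with the siRNA, while VIM fell with both (difference 0.14).

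**Figure D4:**
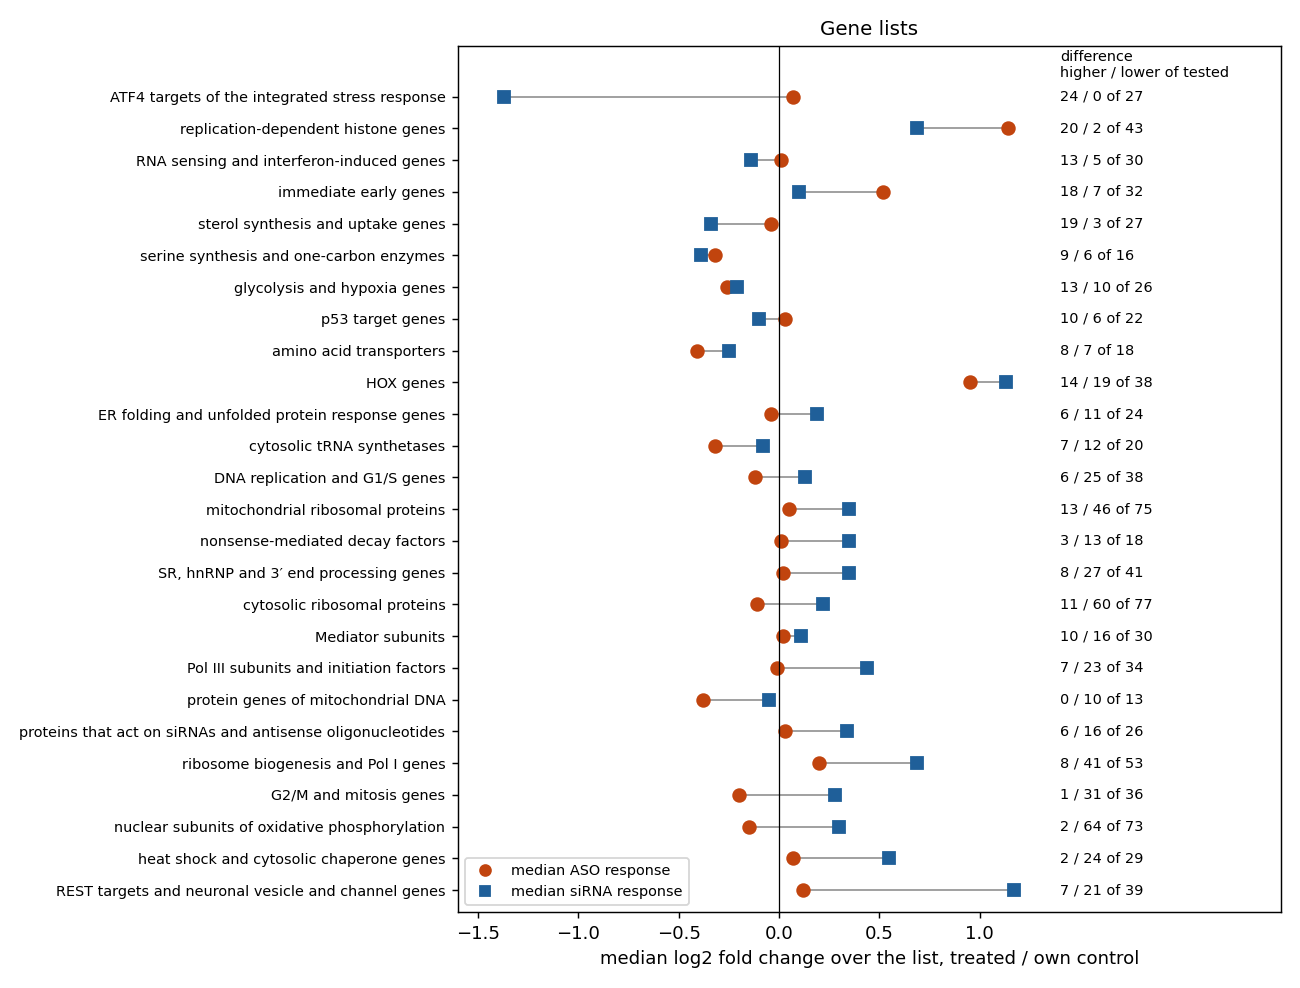
Median log2 fold change of each gene list for the ASO response (circles) and the siRNA response (squares), sorted by the median difference; figures at the right give how many members had a difference called higher and lower, of how many tested. ATF4 targets stand at the top (24 higher, 0 lower of 27) and REST and neuronal genes at the bottom (7 higher, 21 lower of 39); the siRNA median lies right of the ASO median for most translation, chaperone and cell cycle lists.

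Most cytosolic ribosomal protein and nuclear respiratory chain genes fell slightly with the ASO and rose with the siRNA, as did many other abundant genes. Calls in opposite directions were made for 44 of 77 and 38 of 73. When only genes of at least 5 CPM were fitted, the median difference moved by 0.12 log2. Whether the small ASO falls of these lists keep their direction under that scaling was not tested. Of 77 cytosolic ribosomal protein genes, 60 had a lower and 11 a higher response to the ASO (77.9% and 14.3%, median difference -0.32); 61 fell with the ASO (79.2%, median -0.11) and 54 rose with the siRNA (70.1%, median 0.22). All but 1 of them, 76, were in the highest bin by mean CPM, where 69.8% had a lower response to the ASO (median difference -0.32), 56.1% fell with the ASO and 63.6% rose with the siRNA. RPL6, for example, had 1315 ± 15.9 CPM in POLR3G ASO libraries and 1424 ± 6.22 CPM in scramble ASO libraries, and 2223 ± 61.4 CPM in POLR3G siRNA libraries and 1430 ± 13.9 CPM in control siRNA libraries (SD, n = 3 each; difference -0.75 ± 0.03). RPL24 and RPS15 had differences of -0.71 ± 0.03 and -0.76 ± 0.03. Against this, RPL37, RPL13 and RPL4 held the 3 lowest adjusted p-values of the list, with positive differences.

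Of 73 nuclear subunits of oxidative phosphorylation, 64 had a lower response to the ASO and 2 a higher one (87.7% and 2.74%; 23 of the 73 were in the highest bin by level); 49 fell with the ASO and 58 rose with the siRNA, with medians of -0.15 and 0.30. The ATP synthase subunits ATP5F1C and ATP5F1B had differences of -0.76 ± 0.03 and -0.49 ± 0.02, and the cytochrome oxidase subunit COX6C of -0.95 ± 0.04. The 2 exceptions were NDUFV3, a complex I subunit that rose 1.57-fold with the ASO (difference 0.80 ± 0.10), and UQCRC2 of complex III, which fell with both (difference 0.22 ± 0.03). The 13 protein genes of mitochondrial DNA all fell with the ASO, with a median of -0.38. A lower response to the ASO was called for 10 of them (76.9%) and a higher one for none. All 13 were in the highest bin by level, where 69.8% of genes had a lower response and 56.1% fell with the ASO. MT-ND1, the 1 gene of the 13 that rose with the siRNA, had an ASO response of -0.25 and an siRNA response of 0.63. Mitochondrial transcripts made up 7.67 to 7.88% of reads in POLR3G ASO libraries, against 9.07 to 9.86% in scramble ASO libraries, and 4.37 to 5.09% in POLR3G siRNA libraries, against 5.36 to 5.64% in control siRNA libraries.

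Mitochondrial ribosomal proteins (46 lower and 13 higher of 75, 61.3% and 17.3%) followed, with a range of responses to the siRNA. MRPL47 rose 2.12-fold with the siRNA (difference -1.06 ± 0.03), whereas MRPS34 and MRPS6 fell 2.16-fold and 2.9-fold with it (differences 1.17 ± 0.05 and 1.49 ± 0.07) and had ASO responses of 0.06 and -0.05, below the threshold.

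Ribosome biogenesis genes rose with both agents. Of 53, 37 rose with the ASO (median 0.20) and 48 with the siRNA (median 0.69). The rise was larger with the siRNA for most: the difference was lower for 41 (77.4%) and higher for 8 (15.1%). The highest bin by level, where 69.8% of genes were lower, held 25 of the 53. DDX10, a helicase of small subunit assembly, had 77.4, 82.3 and 83 CPM in POLR3G ASO libraries, against 87.7, 81.8 and 79.1 CPM in scramble ASO libraries, and the ranges overlapped. It had 138, 141 and 139 CPM in POLR3G siRNA libraries, against 44.5, 43.1 and 42.5 CPM in control siRNA libraries. The difference was -1.72 ± 0.05 (edgeR adjusted p = 1.67e-11). WDR74, which takes part in large subunit assembly, was an exception: it rose 5.72-fold with the ASO and 2.15-fold with the siRNA (difference 1.41 ± 0.05, and 2.18 with an adjustment for transcript length). HEATR1, a small subunit assembly factor, fell 1.06-fold with the ASO and 1.49-fold with the siRNA.

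Heat shock and cytosolic chaperone genes had a lower response to the ASO in 24 of 29 cases (82.8%) and a higher one in 2 (6.9%); 22 of the 29 were in the highest bin by level. HSP90AA1, the inducible HSP90, averaged 2929 ± 59.3 CPM in POLR3G ASO libraries and 3011 ± 67.4 CPM in scramble ASO libraries (SD, n = 3 each). It averaged 4292 ± 95.8 CPM in POLR3G siRNA libraries and 1546 ± 22.6 CPM in control siRNA libraries. Its difference was -1.51 ± 0.03, with most of the movement in the siRNA experiment. Its co-chaperone DNAJA1 rose with both, by 1.24-fold with the ASO and 3.45-fold with the siRNA, and CCT7 of the chaperonin ring rose 1.9-fold with the siRNA. The 2 genes with higher responses to the ASO were HSPA8, the constitutive HSP70 (1.36), and its co-chaperone BAG3 (1.05). HSPA8 rose 1.57-fold with the ASO and fell 1.64-fold with the siRNA. The controls of the experiments also differed for some genes. HSP90AA1, like SYP, UNC13A and DDX10 above, was higher in scramble ASO than in control siRNA libraries, while DDIT4 was lower. The part of these gaps between controls in the differences was not tested.

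Cell cycle genes also split by agent. Of 36 genes of G2 and mitosis, 31 had a lower response to the ASO and 1 a higher one (86.1% and 2.78%). In the highest bin by level, which held 20 of the 36, 69.8% of genes had a lower response. From this list 28 fell with the ASO (median -0.20) and 27 rose with the siRNA (median 0.28). The mitotic motor KIF11 had 157, 154 and 147 CPM in POLR3G ASO libraries, against 196, 210 and 206 CPM in scramble ASO libraries. It had 313, 339 and 329 CPM in POLR3G siRNA libraries, against 185, 167 and 179 CPM in control siRNA libraries. No treated library overlapped its controls, and the directions were opposite (difference -1.30 ± 0.06; edgeR adjusted p = 4.68e-10). TOP2A, which untangles chromosomes, and TPX2, a spindle assembly factor, had differences of -0.83 ± 0.03 and -0.73 ± 0.03. Among 38 genes of DNA replication and the G1/S transition, 25 were lower and 6 higher (65.8% and 15.8%), with 16 in the highest bin by level. POLA1, the catalytic subunit that starts DNA synthesis, fell with the ASO and rose with the siRNA (difference -1.15 ± 0.05). GINS4 of the replicative helicase did the same (difference -1.14 ± 0.05), whereas the licensing factor CDT1 fell 1.68-fold with the siRNA (difference 0.85 ± 0.05).

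HOX genes, the clustered transcription factors of body axis identity, rose with both agents. Of 38 tested, 35 rose and 1 fell with the ASO (median 0.95), and 30 rose and 2 fell with the siRNA (median 1.13). The shares that rose were 92.1% with the ASO and 78.9% with the siRNA, against 34.2% and 34.9% of all genes. Their sizes differed: the difference was higher for 14 (36.8%) and lower for 19 (50%). Over all genes these shares were 33.8% and 33.0%, so the share called higher was near that of all genes. In the HOXA cluster, HOXA2 to HOXA13 rose with both agents. HOXA2 and HOXA7 rose more with the ASO, HOXA2 to 71.2 ± 3.91 CPM in POLR3G ASO libraries, against 6.2 ± 0.788 CPM in scramble ASO libraries (SD, n = 3 each), and to 6.63 ± 0.158 CPM in POLR3G siRNA libraries, against 2.47 ± 0.283 CPM in control siRNA libraries. HOXA5, HOXA9 and HOXA11 rose less with the ASO, by 2.85-fold, 2.32-fold and 1.94-fold, than with the siRNA, by 8.04-fold, 6.58-fold and 6.07-fold. HOXD13 had 183, 182 and 183 CPM in POLR3G ASO libraries, against 121, 122 and 123 CPM in scramble ASO libraries. It had 706, 705 and 696 CPM in POLR3G siRNA libraries, against 107, 105 and 108 CPM in control siRNA libraries, and had the lowest adjusted p of the list (difference -2.14 ± 0.02; edgeR adjusted p = 1.05e-14). HOXC8 rose 2.27-fold with the ASO and fell 1.16-fold with the siRNA. HOXB4 and HOXB7 rose alike, with 95% intervals of the difference of -0.07 to 0.31 and -0.22 to 0.08.

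**Figure D5:**
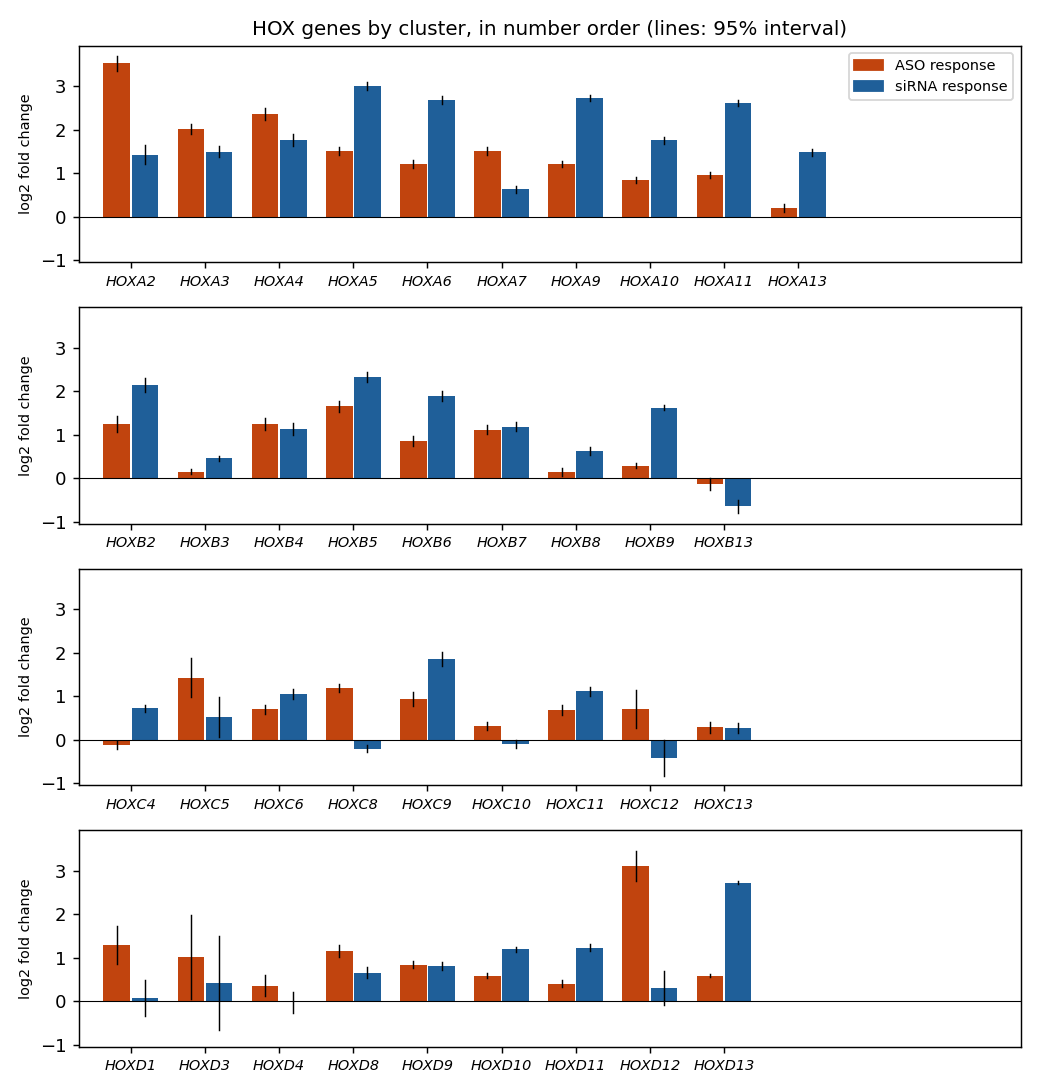
Log2 fold change of 37 of the 38 tested HOX genes in the clusters A to D, in number order, for the ASO (left bar of each pair) and the siRNA (right bar), with 95% intervals as lines. All HOXA genes drawn are above zero with both agents; HOXA2, HOXA3, HOXA4 and HOXA7 are higher with the ASO, HOXA5, HOXA6 and HOXA9 to HOXA13 with the siRNA.

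Other genes moved alike. SLC7A3, a cationic amino acid transporter, had 8.54, 7.95 and 7.24 CPM in POLR3G ASO libraries, against 18.2, 17.2 and 18.9 CPM in scramble ASO libraries. It had 10.1, 10.6 and 10.9 CPM in POLR3G siRNA libraries, against 23.1, 22 and 20.3 CPM in control siRNA libraries. No treated library overlapped its controls: SLC7A3 fell 2.29-fold with the ASO and 2.07-fold with the siRNA (difference -0.14 ± 0.10, 95% interval -0.35 to 0.07). HACD1, a fatty acid elongation enzyme, fell 2.28-fold and 2.59-fold, and EDIL3, a secreted integrin ligand, 2.11-fold and 2.34-fold, with the ASO value first. The zinc finger gene ZNF551 rose 2.73-fold with the ASO and 2.4-fold with the siRNA (difference 0.18 ± 0.10, 95% interval -0.03 to 0.39).

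Genes with the strongest opposite responses included KRBA2, BEST1, KLHL3 and AKAP5, which rose with the ASO and fell with the siRNA. KRBA2 had 82, 83.5 and 89.9 CPM in POLR3G ASO libraries, against 17.9, 21.4 and 20.9 CPM in scramble ASO libraries. It had 7.74, 6.96 and 8.11 CPM in POLR3G siRNA libraries, against 21.4, 25.8 and 23.6 CPM in control siRNA libraries (difference 3.72 ± 0.12; edgeR adjusted p = 1.71e-11). BEST1, a chloride channel, had a difference of 3.81 ± 0.13 (4.54 with an adjustment for transcript length), KLHL3, a ubiquitin ligase adaptor, of 2.52 ± 0.10, and AKAP5, a kinase anchor, of 2.48 ± 0.07. In the other direction ALDH1A2, which makes retinoic acid, had 40.7, 39.1 and 40.0 CPM in POLR3G ASO libraries, against 76.8, 74 and 78.4 CPM in scramble ASO libraries. It had 218, 219 and 215 CPM in POLR3G siRNA libraries, against 56.5, 52.7 and 58.1 CPM in control siRNA libraries (difference -2.90 ± 0.05). The nuclear receptor RORB (-2.79 ± 0.05) and the endocytic adaptor REPS1 (-1.90 ± 0.04) also fell with the ASO and rose with the siRNA.

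Other large differences came with movement in one experiment more than in the other. GADD45B, a growth arrest and stress gene, had 152, 145 and 172 CPM in POLR3G ASO libraries, against 14.1, 18.6 and 15.5 CPM in scramble ASO libraries. It had 14.9, 14.2 and 15.5 CPM in POLR3G siRNA libraries, against 14.6, 16 and 17.3 CPM in control siRNA libraries, where the ranges overlapped. The rise of 9.74-fold with the ASO gave a difference of 3.39 ± 0.14 (edgeR adjusted p = 1.51e-10). FAM83E and the olfactory receptor gene OR5AU1 also rose with the ASO (differences 3.36 ± 0.40 and 4.47 ± 0.28), as did the zinc finger gene ZBTB11 (3.49 ± 0.58). FUT1, a fucosyltransferase, rose 1.4-fold with the ASO and fell 9.32-fold with the siRNA. SHISA2, a membrane protein, had 24.5, 26.3 and 25.2 CPM in POLR3G ASO libraries, against 32.8, 34.1 and 29.1 CPM in scramble ASO libraries. It had 346, 344 and 356 CPM in POLR3G siRNA libraries, against 39.9, 39.7 and 39.3 CPM in control siRNA libraries (difference -3.48 ± 0.06). GNAO1, a G protein of neurons, and LRATD1 fell with the ASO and rose with the siRNA (differences -3.62 ± 0.11 and -3.98 ± 0.28).

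Transcript assignment limits some of these. MYO19, a mitochondrial myosin, had 16.7, 23.6 and 25.6 CPM in POLR3G ASO libraries, against 31.6, 22.9 and 13.7 CPM in scramble ASO libraries. It had no read in the 3 POLR3G siRNA libraries, against 36.3, 36.1 and 31.9 CPM in control siRNA libraries, at least 451-fold lower when each library at 0 is set to 3 reads. Reads that Salmon gave to transcripts absent from the annotation used here, 8.57 to 9.54% of each library, are not in these sums. ASXL3, a chromatin regulator, had 0.916, 30.8 and 4.63 CPM in POLR3G ASO libraries, against 1.33, 6.24 and 1.9 CPM in scramble ASO libraries, and its difference of 5.51 ± 1.38 was 3.37 without the second POLR3G ASO library and 6.47 without the second scramble ASO library. STAMBP, a deubiquitinase, had a difference of -4.61 ± 0.98, and of -3.26 without the second scramble ASO library, which had 9.06 CPM, against 1.85 and 1.32 CPM in the other scramble ASO libraries. Adjustments for transcript length gave 3.94 for ASXL3 and -2.77 for STAMBP.

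Stress and growth regulators differed by class. Of 32 immediate early genes, 18 had a higher and 7 a lower response to the ASO (56.2% and 21.9%), with 23 rising with the ASO and 12 with the siRNA. DUSP1, a phosphatase of stress kinases, rose 2.44-fold with the ASO and fell 1.08-fold with the siRNA (difference 1.40 ± 0.06), and IER2 and KLF10 had differences of 1.30 ± 0.05 and 1.58 ± 0.07. JUN rose with both, by 1.68-fold and 2.04-fold. MCL1, an inhibitor of apoptosis, rose 1.26-fold with the ASO and 2.9-fold with the siRNA. MYC fell 1.11-fold with the ASO and rose 1.75-fold with the siRNA. Among 22 p53 targets, 10 were higher and 6 lower (45.5% and 27.3%). PMAIP1, a promoter of apoptosis, averaged 227 ± 2.77 CPM in POLR3G ASO libraries and 171 ± 0.924 CPM in scramble ASO libraries, and 760.2 ± 27.2 CPM in POLR3G siRNA libraries and 152 ± 1.53 CPM in control siRNA libraries (SD, n = 3 each; difference -1.91 ± 0.03). RRM2B, a ribonucleotide reductase subunit, had an ASO response of -0.03 and fell 4.51-fold with the siRNA (difference 2.15 ± 0.06). TP53INP1 and TIGAR had differences of -1.46 ± 0.07 and -1.11 ± 0.06, and CCNG1 of 0.48 ± 0.03.

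Sterol synthesis and uptake genes had a higher response to the ASO in 19 of 27 cases (70.4%) and a lower one in 3 (11.1%). Of the list, 9 rose and 11 fell with the ASO, and 5 rose and 18 fell with the siRNA. SREBF2, which activates the pathway, fell with both (difference 0.73 ± 0.03), the enzyme MSMO1 rose 1.21-fold with the ASO and fell 1.45-fold with the siRNA (difference 0.81 ± 0.05), and SCAP, the escort of SREBF2, went the other way (-0.94 ± 0.04). Among 26 glycolysis and hypoxia genes, 13 were higher and 10 lower (50% and 38.5%); VEGFA and TPI1 fell further with the siRNA (differences 1.17 ± 0.05 and 0.79 ± 0.03), while ENO1 rose with the siRNA (-1.02 ± 0.03). Among 24 genes of the endoplasmic reticulum, 6 were higher, CALR and XBP1 among them (1.07 ± 0.03 and 1.05 ± 0.05), and 11 lower, SEL1L among them (-0.67 ± 0.07), shares of 25.0% and 45.8%.

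Replication-dependent histone genes were mostly at low levels in these polyadenylated libraries. Of 43 tested, 35 rose with the ASO (81.4%) and 17 with the siRNA, and 20 had a higher and 2 a lower response to the ASO (46.5% and 4.65%). Low genes pass the filter on low counts if they are high in any group. In the 3 lowest of 10 equal bins by level, 62.3%, 48.8% and 43.5% of genes rose with the ASO. There the difference was higher for 25.6%, 37.0% and 43.2% and lower for 2.23%, 6.58% and 14.4%. When only genes of at least 5 CPM were fitted, 7 of 8 histone genes were higher. H2BC21 rose 4.82-fold with the ASO and fell 1.35-fold with the siRNA, and H3C6 and H4C15 had differences of 1.87 ± 0.14 and 1.25 ± 0.15. Histone genes are near-identical copies of each other, and reads may have been shared out among them.

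Within the Pol III machinery, 23 of 34 tested genes had a lower and 7 a higher response to the ASO (67.6% and 20.6%). With the ASO 11 rose and 11 fell; with the siRNA 24 rose and 9 fell. POLR3B, of the catalytic core, fell 1.14-fold with the ASO and rose 1.39-fold with the siRNA (difference -0.66 ± 0.05). POLR3E fell 1.12-fold with the ASO and 2.25-fold with the siRNA (difference 1.01 ± 0.08; edgeR adjusted p = 1.27e-07). Of the promoter-binding factor TFIIIC, GTF3C5 and GTF3C6 rose with the siRNA (differences -0.94 ± 0.04 and -0.93 ± 0.05), and GTF3A, the factor for 5S genes, fell with it (0.53 ± 0.07). BRF2, the initiation factor for U6-type promoters, rose with both and further with the ASO (difference 0.62 ± 0.08), whereas BRF1, its counterpart at tRNA genes, had a difference of -0.35 ± 0.06, which lost its call with an adjustment for transcript length (-0.17, edgeR adjusted p = 0.289). SNAPC5 and SNAPC1, of the complex that binds U6-type promoters, had positive differences (1.64 ± 0.06 and 0.86 ± 0.05): SNAPC5 rose with the ASO and fell with the siRNA, while SNAPC1 fell with the siRNA and had an ASO response of -0.04.

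Proteins listed for the agents or for small RNA pathways were also changed, with microRNA processing factors such as DROSHA, DGCR8 and XPO5 among them. Of 26 tested, 16 had a lower and 6 a higher response to the ASO (61.5% and 23.1%), with 10 of the 26 in the highest bin by level. The microRNA nuclease DROSHA had 99.3, 99.8 and 101 CPM in POLR3G ASO libraries, against 134, 132 and 134 CPM in scramble ASO libraries. It had 49.7, 51.1 and 50.02 CPM in POLR3G siRNA libraries, against 151, 149 and 152 CPM in control siRNA libraries. DROSHA fell with both, further with the siRNA (difference 1.17 ± 0.03; edgeR adjusted p = 1.53e-12), and its partner DGCR8 rose with both, further with the siRNA (-1.24 ± 0.05). Among the Argonautes, AGO4 fell further with the siRNA (0.86 ± 0.05); AGO2 and AGO3 had differences of -0.32 ± 0.06 and -0.93 ± 0.04, both lost with an adjustment for transcript length (-0.07 and -0.06; edgeR adjusted p = 0.466 and 0.683). RNASEH1, the nuclease used by many ASOs, had a difference of -0.38 ± 0.04, from an ASO response of 0.05 that missed the threshold and an siRNA response of 0.43. The exporter XPO5 (-0.37 ± 0.03) and the La protein SSB, which binds Pol III transcripts (-0.60 ± 0.03), were lower, and DICER1 higher (0.40 ± 0.05).

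Innate immune genes moved in both directions. Of 40 listed, 30 were tested, and 13 had a higher and 5 a lower response to the ASO (43.3% and 16.7%). Only 14 of the 30 averaged at least 5 CPM. The median difference was 0.48 over the 30 and 0.03 over the 14. Low genes pass the filter on low counts if they are high in any group, so these counts describe the genes that passed. The RNA editor ADAR had 353, 348 and 358 CPM in POLR3G ASO libraries, against 382, 378 and 378 CPM in scramble ASO libraries. It had 115, 117 and 115 CPM in POLR3G siRNA libraries, against 385, 391 and 386 CPM in control siRNA libraries, a fall of 1.07-fold with the ASO and of 3.35-fold with the siRNA (difference 1.64 ± 0.02; edgeR adjusted p = 6.8e-14). NFKBIA, the inhibitor of NF-kB, rose with the ASO and fell with the siRNA (1.28 ± 0.10). The chemokines CCL5 and CXCL8 had differences of 1.30 ± 0.12 and 3.19 ± 0.31, the interferon regulatory factor IRF1 of 0.54 ± 0.13 and the adaptor MAVS of 0.18 ± 0.05. The RNA sensor IFIH1 fell with both, with a difference of -0.13 ± 0.21 (95% interval -0.58 to 0.32).

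Factors of RNA processing had lower responses to the ASO more often than higher ones. Of 41 SR, hnRNP and 3′ end processing genes, 27 were lower and 8 higher (65.9% and 19.5%), near the share of the highest bin by level, which held 33 of the 41; U2AF1 and HNRNPM rose with the siRNA (differences -1.03 ± 0.04 and -1.05 ± 0.05), and TRA2A fell with it (0.75 ± 0.04). Of 18 nonsense-mediated decay factors, 13 were lower (72.2%), such as MAGOH (-1.01 ± 0.06), a near-copy of MAGOHB, and 3 higher (16.7%), such as UPF3A (0.86 ± 0.07). The highest bin by level, where 69.8% of genes were lower, held 10 of these 18. Of 30 Mediator subunits, 16 were lower and 10 higher (53.3% and 33.3%): CCNC and MED21 rose with the siRNA (-1.65 ± 0.03 and -1.66 ± 0.05), and MED25 and MED1 rose with the ASO and fell with the siRNA (1.34 ± 0.06 and 0.86 ± 0.03).

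The difference also ran with the level of expression and with the kind of gene. In the lowest of 10 equal bins of tested genes by mean level (0.0681 to 0.355 CPM) the median difference was 1.55, made of a median ASO response of 1.63 and a median siRNA response of 0.00; in the highest bin (at least 125 CPM) it was -0.32, with medians of -0.09 and 0.22. Processed pseudogenes (1075 tested) had a median difference of 1.35, and single-exon protein-coding genes (366) of 0.50, against 0.01 over 15220 protein-coding genes with several exons. Of 64 olfactory receptor genes tested, which encode odour sensors of the nose, 42 were higher and 0 lower, with a median of 1.5. Low genes pass the filter on low counts if they are high in any group, so these counts describe the genes that passed.

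Some values of the libraries moved with these, and others did not. Transcripts annotated as processed pseudogenes held 1.17 to 1.29% of reads in POLR3G ASO libraries, against 1.14 to 1.25% in scramble ASO libraries. These ranges overlapped. The same transcripts held 0.34 to 0.35% of reads in POLR3G siRNA libraries, against 0.31 to 0.32% in control siRNA libraries. Olfactory receptor genes summed to 546 to 586 CPM in POLR3G ASO libraries, against 184 to 194 CPM in scramble ASO libraries, and to 80.3 to 82.3 CPM in POLR3G siRNA libraries, against 88.2 to 95.6 CPM in control siRNA libraries. Genes with at least 1 read numbered 23904 to 23977 in POLR3G ASO libraries, against 20819 to 21086 in scramble ASO libraries, and 19601 to 19803 in POLR3G siRNA libraries, against 19557 to 19815 in control siRNA libraries. Transcripts annotated as retaining an intron held 5.57 to 5.68% of reads in POLR3G ASO libraries, against 4.95 to 5.05% in scramble ASO libraries, and 4.0 to 4.04% in POLR3G siRNA libraries, against 4.89 to 4.96% in control siRNA libraries. The 15 monocyte markers summed to 38.3 to 40.1 CPM in POLR3G ASO libraries, against 7.48 to 8.86 CPM in scramble ASO libraries. They summed to 5.38 to 6.10 CPM in POLR3G siRNA libraries, against 3.72 to 4.29 CPM in control siRNA libraries. Of the 15, 8 passed the filter, and 1 averaged at least 5 CPM. Of the 8, 4 had a higher and 0 a lower response to the ASO (50% and 0%), against 33.8% and 33.0% of all genes. In the 3 lowest bins by level, 25.6%, 37.0% and 43.2% of genes were higher and 2.23%, 6.58% and 14.4% lower. The count describes markers that passed the filter, which low genes do if they are high in any group. The part of these library values in the responses was not tested.

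The direction of small differences depended on the scaling. With genes of at least 5 CPM taken from the fit of all genes, 3680 had a higher and 5199 a lower response to the ASO (32.3% and 45.7% of 11380); when only these genes were fitted and scaled, 4611 were higher and 4318 lower, and the median difference moved by 0.12 log2. In that fit ZNF551, HOXB4, EDIL3, CBS, CTH and CDK5R1, given above as moving alike, were called higher by 0.13 to 0.30 log2. Differences of that size have no settled direction here, while the counts for ribosomal proteins (55 lower), oxidative phosphorylation (58), G2 and mitosis genes (28) and ATF4 targets (23 higher) stayed within 1.5 times of their main values.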

How the data were processed

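Polyadenylated RNA from HEK293T cells was sequenced in pairs on a NovaSeq X Plus after a stranded library preparation, per the labels' protocols. Per the submitters' processing notes, the authors used bcl2fastq 2.20, Trim Galore, Salmon, DESeq2 and hg38. The deposited estimated counts per transcript were made by the authors with Salmon, per the file headers and those notes. The deposited TPM values from the same tool were used only to derive transcript lengths for an alternative fit. Columns of the deposited table were joined to samples through their labels.

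Estimated counts were summed per gene through GENCODE 29, which matched 81.6% of transcripts, and rounded to whole numbers. The 12 libraries held 32705684 to 49358788 reads, of which 8.57 to 9.54% belonged to unmatched transcripts. A single model with the 4 groups as its only term was fitted to these counts over the 12 libraries in edgeR 4.0.16 (R 4.3.3), after filtering by filterByExpr and scaling by TMM, and contrasts were tested by the quasi-likelihood F-test; p-values were adjusted by Benjamini-Hochberg over all 17489 genes tested, and an adjusted p under 0.05 was called. Intervals are 95% intervals of the log2 fold change, errors of log2 values are SE, and CPM values carry the SD of 3 libraries. Simulated data for the difference held 16685 genes, with 50 genes per size changed up or down in the POLR3G ASO group alone. Of genes changed 1.25-fold 44% were recovered, of 1.5-fold 76%, of 2-fold 86% and of 4-fold 90%, and 6 unchanged genes were called. In the data 66.8% of genes were called, so these rates do not cover errors under such wide changes or from the scaling.

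The members, gene lists and rules were chosen with earlier results of these data known. Named genes were POLR3G, POLR3GL and MAF1; the genes with the largest, most opposite and most alike responses; and list members with the lowest adjusted p. Apart from the first 3 they had to be protein-coding and average at least 5 CPM. They also could not switch between 0 reads and 5 CPM or more within a group. As an exception, any tested member could be named from the lists of ATF4 targets, serine and one-carbon enzymes, amino acid transporters and neuronal genes. The same held for Pol III genes, innate immune genes and proteins listed for the agents or for small RNA pathways. Same-numbered treated and control libraries did not deviate together in every pair, so replicate numbers were not used as pairs in the reported fit. Alternatives were DESeq2 1.42.0, its size factors, other filters and thresholds, the replicate block, all HEK293T libraries, a length offset, and leaving out each library. Some genes that met these rules are not reported here.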

Additional observations from a re-analysis of the deposited data

How the results depend on the processing

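Over 21 alternatives, the counts of genes and of list members stayed within 1.5 times of the reported values with 4 exceptions. When only genes of at least 5 CPM were fitted, 1152 genes fell with the ASO and rose with the siRNA (1934 reported), 10 of 18 REST and neuronal genes had a lower difference (21 of 39 reported) and 7 of 8 histone genes a higher one (20 of 43 reported); fewer genes are tested there, and the median difference moves by 0.12 log2. At an adjusted p under 0.01, 613 genes rose with the ASO and fell with the siRNA (996 reported).

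Leaving out each library in turn gave 5479 to 5714 genes with a higher and 5647 to 5768 with a lower difference, and 23 to 24 ATF4 targets higher. Among the named genes, a difference that missed the threshold changed sign for CBS (-0.029 with no filter on low counts, and -0.005 to 0.028 when each library was left out), HOXB7 (0.053 over genes of at least 5 CPM and 0.046 with the length offset) and ZNF551 (-0.112 with the length offset). Calls were lost for MTHFD2, BRF1, AGO2 and AGO3, each named with its values above. Without the second POLR3G siRNA library ZNF551 was called (0.256, edgeR adjusted p = 0.0164). The cause of these changes was not tested.

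With the replicate number as a block, 5629 genes had a higher and 5656 a lower difference, and 11139 reported calls kept their direction. Same-numbered libraries deviated with correlations of 0.20, 0.20 and -0.05 in the ASO experiment and -0.08, 0.08 and -0.02 in the siRNA experiment. Crossing the first and second libraries of the ASO experiment gave -0.19 and -0.25. The numbers therefore did not go with shared deviations in every pair. The block ended no call of a named gene.

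The 3 libraries per group limit small differences: in simulated data with few changed genes, 44% of 1.25-fold differences were recovered. Transcript assignment by Salmon, near-identical gene copies and unmatched transcripts limit single genes such as MYO19.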
